A study of Mus musculus with 401 samples.

Results

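The mouse mitochondrial genome carries 37 genes, and all 37 were present in the deposited gene tables of single oocytes and their cumulus cells. They were taken as each gene whose symbol starts with mt-, which gave 37 of 41092 genes in the first set of samples and 37 of 42349 in the second. They comprise 2 rRNA genes, 13 mRNA genes and 22 tRNA genes. Mitochondrial DNA is transcribed from both strands as long precursors, which are cut at the tRNAs lying between most of the rRNAs and mRNAs. The mRNAs encode subunits of respiratory complexes I, III and IV and of ATP synthase (complex V), while the rRNAs and tRNAs serve the ribosomes of the organelle that translate them. A growing oocyte builds up a large store of mitochondria that the embryo inherits, and cumulus cells supply it with pyruvate and other metabolites.

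The study profiled the oocyte and the pooled cumulus cells of single follicles from B6D2F1 (C57BL/6 x DBA/2) females by RamDA-seq, a method that copies total RNA along the whole transcript, with or without a poly(A) tail. Fully grown follicles were dissected in M2 medium with IBMX, which holds oocytes in meiotic arrest, and oocytes at the germinal vesicle stage were kept. Mice of the first set were young (2 months), middle (9 months) or old (14 months) and fed ad libitum, or of 9 months under calorie restriction (CR), an adult-onset regimen in which food was lowered stepwise and then held low. The second set held mice of 2, 4, 9 and 14 months fed ad libitum, and mice of 2 months without hyperovulation. In all other groups hyperovulation was induced by an injection, either of the gonadotropin eCG or of CARD HyperOva. Which agent each mouse received is not given in the labels. Lysates of cumulus cells were diluted to bring their RNA near that of an oocyte, so a level is a part of the RNA of a library and not an amount per cell, and fewer cells and less RNA per cell cannot be told apart.

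After 1 complex was left out, oocytes of the first set numbered 16 from 2 young mice, 14 from 4 middle mice, 16 under 2 labels of old mice and 27 from 3 CR mice, with cumulus cells of 15, 15, 16 and 25 complexes. The label Old1_2 covers 11 old complexes and by its name joins 2 mice. The second set held 24 oocytes at 2 months, 39 at 4 months, 16 at 9 months and 16 at 14 months, with cumulus cells of 24, 40, 16 and 16 complexes, from 5, 8, 4 and 5 mice. Without hyperovulation, 32 oocytes and 32 cumulus samples came from 8 mice. The libraries summed to 559305 to 4536690 counts per oocyte and 510029 to 2501005 per cumulus sample. The CR libraries were the deepest, with median totals of 3578882 counts per oocyte and 2019007 per cumulus sample, against 2332126 and 1091806 in middle mice. P-values below are over libraries, so they measure the spread between libraries and not between mice.

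The cell type labels were checked against marker genes. The 13 oocyte markers summed to a mean of 21620 CPM (counts relative to the library total) in oocytes and 12.8 CPM in cumulus cells of the first set, with Gdf9 the most abundant at 4225 CPM in oocytes. The 10 cumulus markers summed to 7455 CPM in cumulus cells and 361 CPM in oocytes, with Inha the most abundant, and in the second set to 6432 and 104 CPM. In that set, the oocyte markers summed to 24500 CPM in oocytes and 4.82 CPM in cumulus cells, where Oosp1 and Tcl1 were at 0. Markers of theca and stroma (5 genes), of blood (4 genes) and of endothelium (2 genes) had means over a whole set and cell type of at most 13, 1.62 and 75.6 CPM, the last of these almost all Pecam1 in oocytes. Groups and single libraries exceeded these means, with a stroma mean of 20.7 CPM in middle cumulus cells and single libraries of up to 166 (stroma), 37.5 (blood) and 124 CPM (endothelium). The complex left out, from the mouse Middle3, had an oocyte library with 10273 CPM of cumulus markers, 224 CPM of oocyte markers and 12.3% of its counts on mitochondrial genes.

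Mitochondrial genes took a far smaller part of the RNA in oocytes than in cumulus cells. In young mice, their share of all counts in cumulus cells was 7.55% at the lowest, 8.95% at the median and 13.2% at the highest (mean 9.19% ± 1.41, SD, n = 15), and in oocytes 0.360%, 0.562% and 5.31% (mean 0.976% ± 1.25, n = 16). All 16 oocytes lay below the lowest cumulus library. The mean share was 9.41 times as large in cumulus cells, a difference of -8.21 percentage points from cumulus cells to oocytes (p = 1e-05, the smallest that the 100000 resamples of the two-sided permutation test can give, and adjusted p = 8e-05 over 16 comparisons). At 2 months in the second set, cumulus shares ran from 6.03% over a median of 7.77% to 15.0% (mean 8.58% ± 2.10, n = 24) and oocyte shares from 0.348% over 0.5% to 0.847% (mean 0.534% ± 0.143, n = 24). Here too no oocyte reached the lowest cumulus library, and the mean was 16.1 times as large in cumulus cells, a difference of -8.05 points (adjusted p = 8e-05). The difference was -7.13 points among complexes named B1 and -9.88 points among those named B2. The labels do not say what this prefix stands for, and it is called a plate here.

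**Figure D1:**
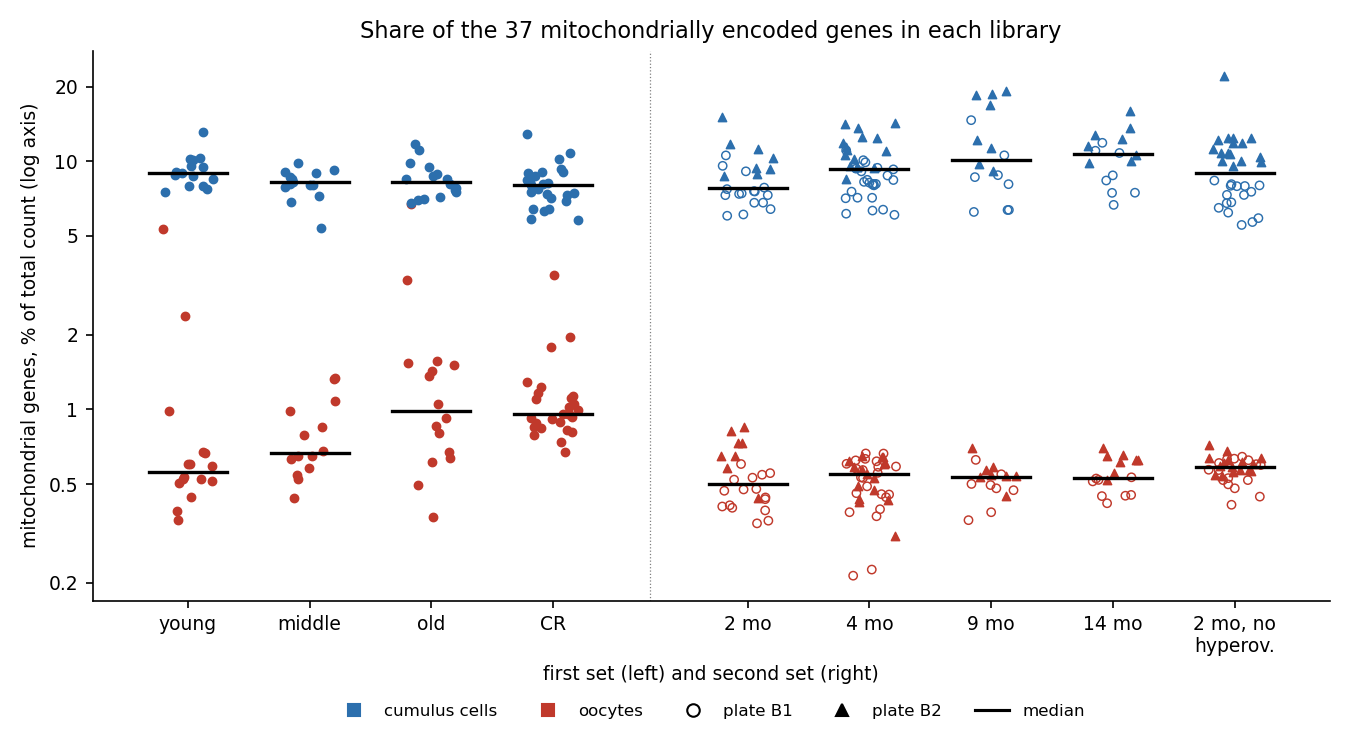
Share of the 37 mitochondrial genes in the total count of each library, in percent on a log axis, for each group of the first set (left) and the second (right). Each point is 1 library, coloured by cell type and, in the second set, shaped by plate, and bars are group medians. Oocytes lie near 0.5% at 2 months and cumulus cells near 7.77%, and a few oocytes of the first set, up to 6.75% in old mice, stand above the rest.

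Most mitochondrial counts came from the 2 rRNAs, which made up 70.7% of them at the median in young cumulus cells and 77.3% in young oocytes. The 13 mRNAs took 2.64% of all counts at the median in young cumulus cells and 0.137% in young oocytes, and the 22 tRNAs 0.0157% and 0.00135%. How evenly the method copies rRNAs, mRNAs and short tRNAs was not measured, so levels are best compared for 1 gene between groups.

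mt-Rnr1, the RNA of the small ribosomal subunit (bases 70 to 1024, plus strand), had the highest median per length at 2 months in both cell types. Its level at 2 months was 21585, 30852 and 59831 RPKM (counts scaled by gene length and library total; lowest, median, highest of 24 libraries) in cumulus cells and 1313, 1853 and 3214 RPKM in oocytes. These libraries did not overlap, and the change from cumulus cells to oocytes was -3.69 on the log2 scale (SE 0.114, adjusted p = 1.75e-37 from edgeR). mt-Rnr2, the RNA of the large subunit (bases 1094 to 2675), stood at 14962, 20128 and 37086 RPKM in cumulus cells and 684, 1308 and 2356 RPKM in oocytes, again without overlap, with a log2 change of -3.57. In young mice the changes were -2.96 for mt-Rnr1 and -2.74 for mt-Rnr2, and for mt-Rnr2 the groups overlapped, because 1 young oocyte reached 21008 RPKM.

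**Figure D2:**
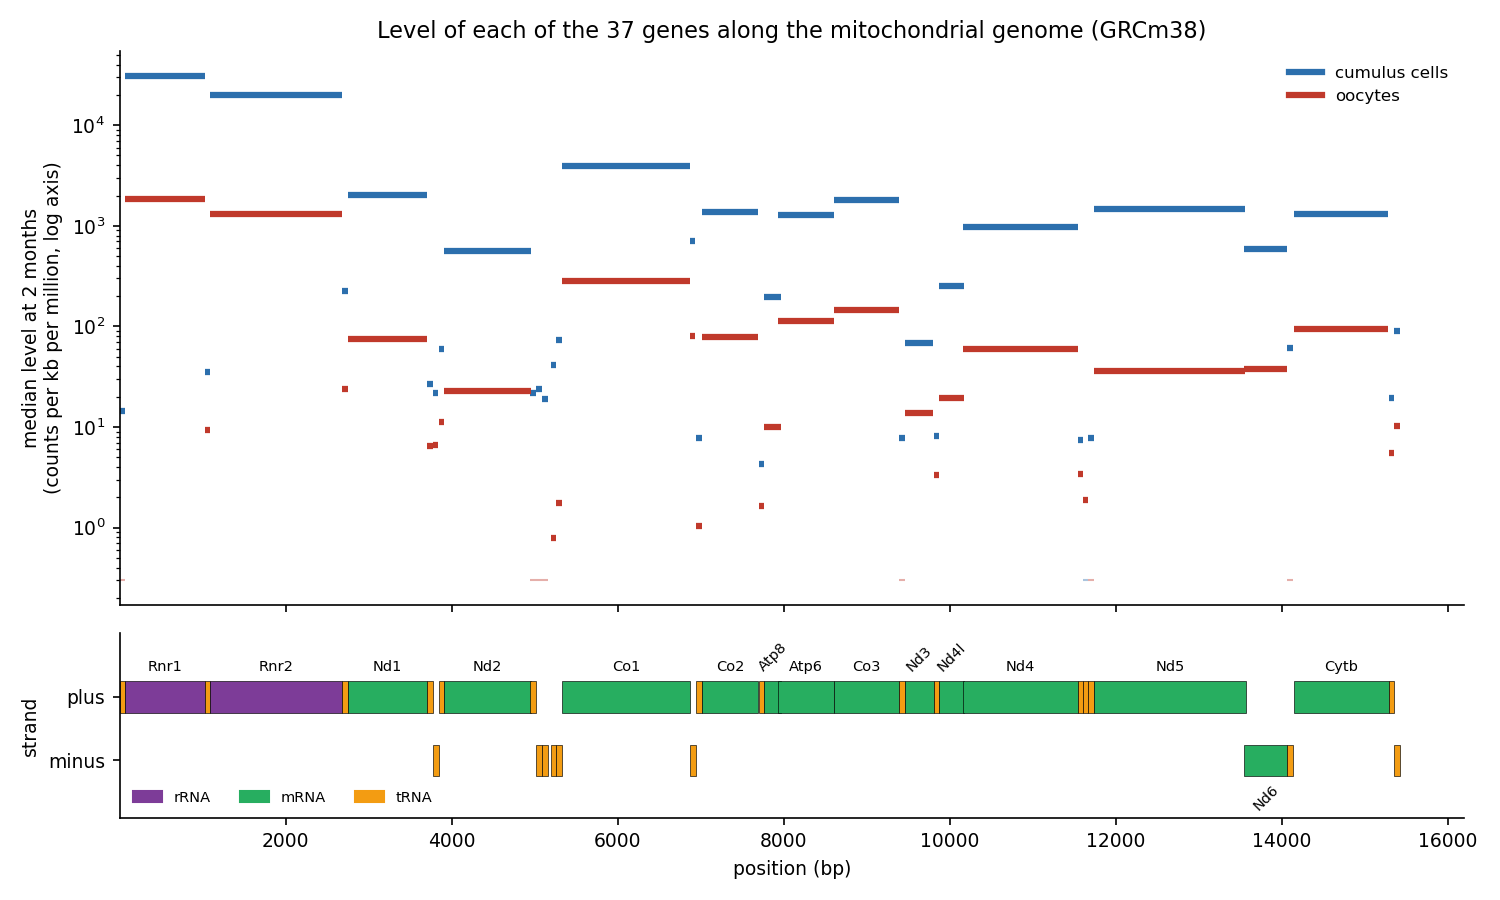
Median level at 2 months of each of the 37 genes along the mitochondrial genome (position in bp, GRCm38), in RPKM on a log axis, for cumulus cells and oocytes (24 libraries each), above a map of the genes by strand. Faint lines at the bottom mark genes with a median of 0. The rRNAs stand highest, with mt-Rnr1 at 30852 in cumulus cells and 1853 in oocytes.

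All 13 mRNAs were lower in oocytes in both sets, by -2.29 to -4.47 log2 units in young mice and -2.03 to -5.08 at 2 months. In young mice 37 of 37 mitochondrial genes were called (adjusted p under 0.05), each lower in oocytes, where 85.6% of all genes tested were called and 44.9% were called lower. At 2 months 34 of 37 were called lower, beside 88.4% of all genes called and 46.1% called lower. Without Young2, 21 were called in young mice, beside 68.7% of all genes, and the difference in share was -9.87 points. With 3 cumulus and 4 oocyte libraries left, there are 35 splits, so an unadjusted p cannot fall below 0.0286, and the value of 0.0287 was 0.0766 after adjustment. Since most genes differ between these cell types, a call says little by itself, and the sizes set the mitochondrial genes apart only as a description. Their median log2 change was -3.05 in young mice and -3.22 at 2 months, against -0.21 and -0.16 over all genes tested. Scaling by nuclear genes alone moved the median of all genes by 0.21 log2 units in young mice, and DESeq2's scaling moved it by -0.23 at 2 months, and the 13 mRNAs and 2 rRNAs are far beyond these shifts.

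Among the mRNAs of complex I, the entry point for electrons from NADH, mt-Nd5 had the largest change. Its level in young mice was 1890, 2360 and 3192 RPKM in cumulus cells and 26.1, 59.5 and 336 RPKM in oocytes. No oocyte came near a cumulus library, and the log2 change was -4.47 (SE 0.242, adjusted p = 1.89e-19). At 2 months it stood at 1165, 1470 and 3199 RPKM against 16.1, 36.3 and 69.5 RPKM, with a log2 change of -5.08. mt-Nd3, another subunit of complex I, had the smallest change of the mRNAs in both sets (-2.29 and -2.03), from a median of 97.1 RPKM in young cumulus cells to 12.6 RPKM in young oocytes. It was the only mRNA whose young oocytes and cumulus cells overlapped.

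The order of the mRNAs by level differed between the cell types. mt-Co1, the catalytic subunit of complex IV, was the most abundant mRNA in both, with a median of 6149 RPKM in young cumulus cells and 349 RPKM in young oocytes. In cumulus cells mt-Nd1 of complex I (3256 RPKM), mt-Co2 of complex IV (2921 RPKM) and mt-Nd5 (2360 RPKM) came next, while in oocytes mt-Co3 of complex IV (139 RPKM), mt-Nd1 (127 RPKM) and mt-Atp6 of ATP synthase (112 RPKM) did. The ranges of these neighbours overlapped, and the order holds only for counts from which reads shared with nuclear copies of mt-Co1, mt-Co2, mt-Co3 and others were taken. mt-Cytb, the only mitochondrial gene of complex III, was at 1359 RPKM in young cumulus cells and 101 RPKM in young oocytes. The lowest mRNAs were mt-Nd3 in both cell types and, next to it, mt-Nd4l in cumulus cells and mt-Atp8 in oocytes, and all of these are short genes.

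Several genes share bases, and the reads carry no strand in these counts. mt-Nd6, the only mRNA on the minus strand, shares 14 bases with mt-Nd5 on the other strand, and its counts cannot be told apart from antisense RNA of the plus strand. It held 2.20% of the mRNA counts at the median in young cumulus cells and 1.64% in young oocytes. mt-Nd4l and mt-Nd4 share 7 bases. mt-Atp8 and mt-Atp6, the mitochondrial subunits of ATP synthase, are read from 1 RNA and share 43 bases, the longest overlap on this genome. The sequence of mt-Atp8 is shown because counts in this stretch can belong to either gene, with the shared bases in capitals (GRCm38, chromosome M, bases 7766 to 7969, plus strand, GENCODE vM21).

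mt-Atp8: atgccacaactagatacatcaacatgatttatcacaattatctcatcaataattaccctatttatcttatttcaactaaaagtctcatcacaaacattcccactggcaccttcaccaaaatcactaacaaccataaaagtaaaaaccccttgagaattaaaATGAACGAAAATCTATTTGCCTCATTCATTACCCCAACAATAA

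Most of the 22 tRNAs, which are 59 to 75 bases long, were near the limit of detection in oocytes. mt-Ts1 and mt-Tl1, tRNAs for serine and leucine, had the highest levels in both cell types. The mt-Ts1 value was not whole in 97.2% of the cumulus libraries and 93.2% of the oocyte libraries of the first set. This does not give the part of its reads that was shared. Reads of mt-Co1, which shares bases with mt-Ts1 on the other strand, cannot be told apart from its own. In young mice mt-Ts1 stood at 923, 1219 and 1651 RPKM in cumulus cells and 34.4, 80.2 and 382 RPKM in oocytes, without overlap, a log2 change of -3.36. mt-Tl1 stood at 109, 263 and 394 RPKM and 12.9, 37.9 and 83.4 RPKM, also without overlap, a log2 change of -2.46. In counts, the median young oocyte held 12.5 counts of mt-Ts1 and 5.75 of mt-Tl1. For mt-Te, the tRNA for glutamate, no young oocyte exceeded 1 count, whereas cumulus cells held 56.2, 160 and 239 RPKM. Against a floor of 3 counts in each library, the cumulus median was at least 8.11-fold higher. mt-Ty, the tRNA for tyrosine, was at least 3.65-fold higher in young cumulus cells, and at 2 months these bounds were 2.97-fold for mt-Te and 3.45-fold for mt-Ty. In young mice 18 of the 22 tRNAs had no oocyte library above 3 counts, and for 8 of them no cumulus library either, so their fitted changes carry little weight and are not given. The 3 genes not called at 2 months, mt-Th, mt-Tk and mt-Ts2, were at or under the floor in both cell types.

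The sequences of these tRNA genes are given because mt-Ts1 and mt-Tl1 had the highest tRNA levels and mt-Te the largest bound between the cell types in young mice. The capitals in mt-Ts1 mark 3 bases shared with mt-Co1 on the other strand. On chromosome M of GRCm38, mt-Ts1 lies at bases 6870 to 6938 (minus strand), mt-Tl1 at 2676 to 2750 (plus) and mt-Te at 14071 to 14139 (minus).

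mt-Ts1: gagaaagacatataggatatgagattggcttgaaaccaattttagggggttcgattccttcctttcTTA
mt-Tl1: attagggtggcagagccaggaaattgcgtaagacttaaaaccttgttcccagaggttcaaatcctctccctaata
mt-Te: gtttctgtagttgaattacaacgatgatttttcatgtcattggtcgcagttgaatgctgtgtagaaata

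Calorie restriction was the condition with the most mitochondrial calls within a cell type. In oocytes, 21 of 35 genes tested were higher in CR than in middle mice of the same age and none was lower. Of all genes tested 30% were called and 15.8% were called higher. The 21 were all 13 mRNAs, 1 of the 2 rRNAs and 7 of 20 tRNAs. DESeq2 called 20, beside 28.3% of all genes. The median log2 change of the 13 mRNAs was 1.17 (1.02 to 1.88), against 0.00 over all genes. In percent of all counts, the mRNAs stood at 0.0961, 0.138 and 0.261 (lowest, median, highest of 14) in middle oocytes and at 0.225, 0.341 and 0.762 (27 libraries) in CR oocytes. The ranges met only at their edges.

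mt-Co2, a subunit of complex IV, had the largest change of the mRNAs. It stood at 84.1, 121 and 219 RPKM in middle oocytes and 252, 421 and 809 RPKM in CR oocytes. No CR oocyte fell within the range of the middle oocytes, and the log2 change was 1.88 (SE 0.126, adjusted p = 8.09e-16). For mt-Nd1 of complex I the levels were 76.8, 139 and 289 RPKM and 293, 421 and 970 RPKM, and the log2 change was 1.62. Its groups did not overlap either. mt-Nd2, also of complex I, went from 16.5, 40.3 and 74.3 RPKM to 66.6, 119 and 315 RPKM, with a slight overlap and a log2 change of 1.68. At the lower end, mt-Cytb of complex III had a log2 change of 1.02, from a median of 99.4 to 202 RPKM. mt-Atp8 and mt-Atp6 of complex V changed by 1.47 and 1.17.

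The rRNAs changed less than the mRNAs in the same oocytes. mt-Rnr1 stood at 1613, 2470 and 5071 RPKM in middle oocytes and 2387, 3076 and 11120 RPKM in CR oocytes, a log2 change of 0.45 (SE 0.146, adjusted p = 0.0147). mt-Rnr2 had medians of 2088 and 2031 RPKM and a log2 change of 0.15 (adjusted p = 0.587), which did not pass the test. The rRNA part of the mitochondrial counts was 71.8%, 79.7% and 88.3% in middle oocytes and 58.4%, 65.5% and 77.9% in CR oocytes, and it is given as a description without a test. Among the tRNAs, mt-Ts1 rose by 1.23 and mt-Tl1 by 1.37 log2 units, the latter from 14.4, 29 and 63 RPKM to 39.9, 70.1 and 140 RPKM. mt-Tm, mt-Tq, mt-Ti, mt-Te and mt-Tg were the other 5 called. mt-Tg, with the largest fitted value of 1.88, did not exceed 0.75 counts in any middle oocyte or 3.17 in any CR oocyte.

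The share of all mitochondrial genes was 0.439%, 0.666% and 1.34% in middle oocytes and 0.672%, 0.961% and 3.47% in CR oocytes, a difference of 0.331 points (p = 0.0284, adjusted p = 0.0758), which did not pass the adjusted threshold. All 27 CR oocytes lay above the median of the middle oocytes. Means per mouse were 0.721% to 0.854% in 4 middle mice and 0.978% to 1.72% in 3 CR mice, without overlap. The exact permutation p over mice of 0.0286 is unadjusted and the smallest this design allows. After adjustment over the comparisons, the difference over mouse means did not pass the threshold. Over libraries the difference passed the threshold without CR1 (0.257 points) or CR3 (0.465 points). With CR counts drawn down at random to the depth of the middle oocytes, 19 mitochondrial genes were called, and with cumulus markers as a covariate 22, beside 29.9% and 30.9% of all genes. With the left-out complex put back, 7 were called beside 30.7% of all genes, mt-Rnr1 changed by -0.28 and the share by -0.439 points. Whether the CR libraries, which were deeper, were made apart from the middle ones is not stated, so handling cannot be told apart from the diet.

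In the cumulus cells of the same mice, edgeR called 0 of 37 genes between middle and CR, where 3.6% of all genes tested were called. At an unadjusted p under 0.05 there were 5. DESeq2 called 2, beside 4.16% of all genes, and without Middle3 edgeR called 1, beside 3.44%. Shares were 5.38%, 8.25% and 9.82% in middle and 5.82%, 8.05% and 12.8% in CR cumulus cells, a difference of -0.0610 points (adjusted p = 0.898). The 13 mRNAs had a median log2 change of -0.15, the lowest being mt-Nd3 at -0.40.

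**Figure D3:**
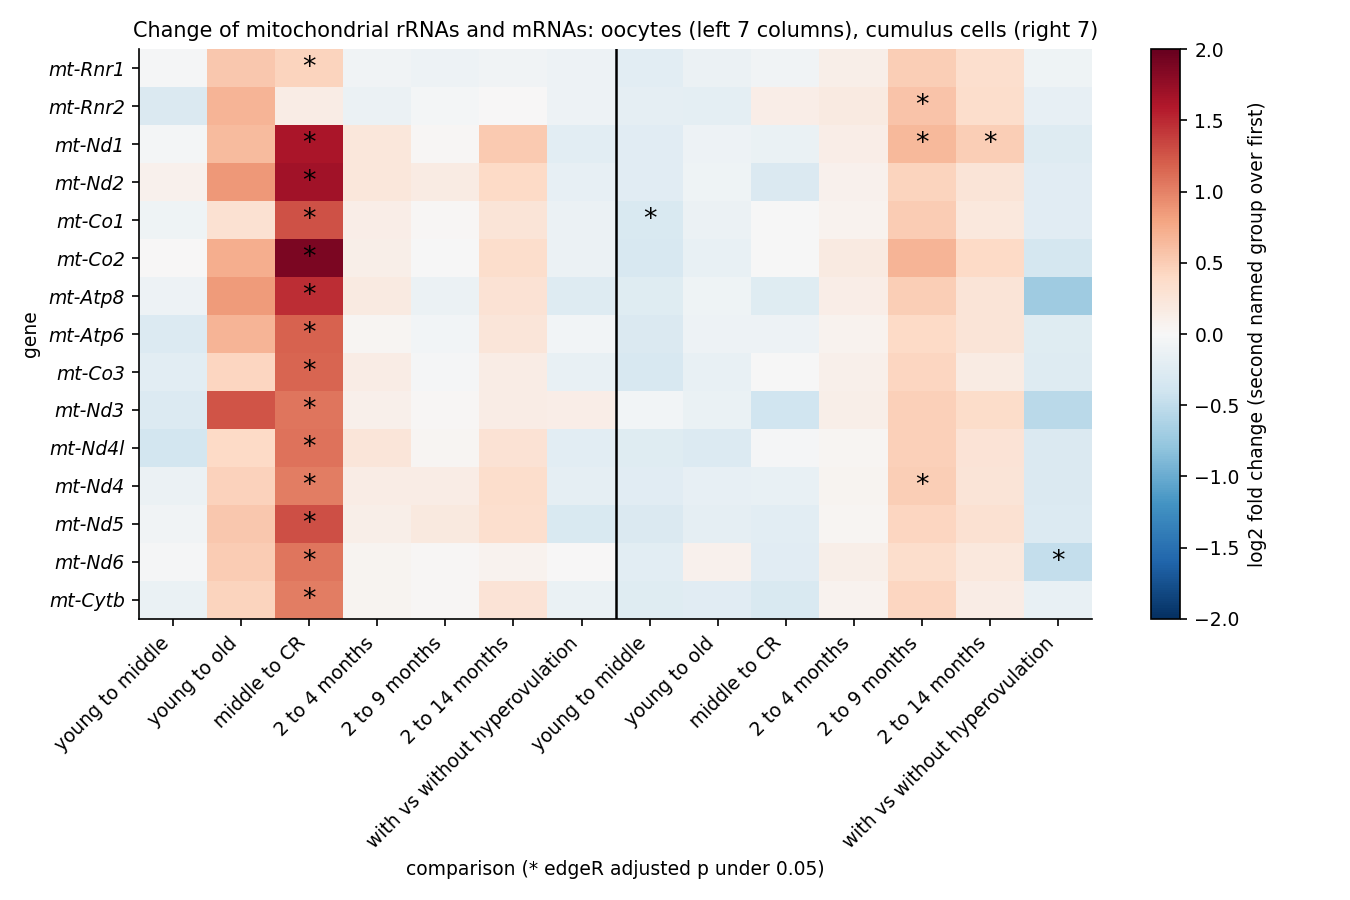
Log2 fold change (colour) of the 2 rRNAs and 13 mRNAs, in genome order after the rRNAs, in 7 comparisons in oocytes (left) and the same 7 in cumulus cells (right), with stars at an edgeR adjusted p under 0.05. The column of middle to CR oocytes holds stars for 13 mRNAs and mt-Rnr1, with mt-Co2 the highest at 1.88, and the other columns hold at most 3.

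Age in the first set gave few calls. Between young and middle oocytes, edgeR called 0 of 30 mitochondrial genes tested and 0% of all genes, and 0 were under an unadjusted p of 0.05. DESeq2 called 0, beside 0.109% of all genes. Between young and old oocytes, edgeR called 0 of 30, with 9 under an unadjusted p of 0.05, where 7.39% of all genes were called. DESeq2 called 2, beside 12.2% of all genes. All 13 mRNAs had a fold change above 0 from young to old oocytes (median log2 change 0.54). The nearest to the threshold was mt-Nd3 at 1.26 (adjusted p = 0.059), with medians of 12.6 and 21.5 RPKM and ranges that overlapped widely. Without the label Old3, 9 were called, while the part of all genes called rose from 7.39% to 18.4%.

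Shares of old oocytes were spread widely. They ran from 0.368% over a median of 0.988% to 6.75%, against 0.360%, 0.562% and 5.31% in young oocytes, a difference in means of 0.517 points (adjusted p = 0.501). It was 0.167 points without the highest old library (of Old1_2), 0.807 without the highest young one (of Young2), both chosen after seeing the data, and -0.320 without the label Old1_2, and none of these passed the threshold. The highest old library had a 95% Wilson interval of 6.71% to 6.80%, which covers counting error only. It held 1192652 counts, 8394 CPM of oocyte markers and 1323 CPM of cumulus markers, against a median of 391 CPM of the latter in old oocytes, and 91.6% of its mitochondrial counts were rRNA. The mean share was 1.87% in 11 oocytes of Old1_2 and 0.656% in 5 of Old3.

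In oocyte libraries of the first set, the mitochondrial share ran with cumulus markers and, in 3 of the 4 groups, against the library total. Across libraries of 1 group, Pearson's r between the share and the summed markers was 0.888 in young (Spearman's rho 0.588, n = 16), 0.516 in old (rho 0.835, n = 16), 0.701 in CR (rho 0.431, n = 27) and 0.409 in middle oocytes (rho 0.226, n = 14). Without the 2 libraries farthest from the median of the x axis, r was 0.862, 0.930, 0.796 and 0.257. In the second set r lay between -0.055 without hyperovulation and 0.479 at 2 months. Between the share and the total count, r was -0.819 in young (rho -0.441), -0.810 in old (rho -0.456), -0.444 in middle (rho -0.459) and -0.0369 in CR oocytes, and -0.146, -0.266, -0.353 and -0.0349 without the 2 farthest libraries. The young oocyte with the highest share had 559305 counts, the lowest total of all oocytes. These values are descriptions, all measures come from 1 library, and markers and depth cannot be told apart by them. In 15 oocyte libraries of the first set the markers exceeded 500 CPM, a limit chosen after seeing the data. Without them the share rose from young to middle by 0.164 points (adjusted p = 0.0455), where it had been -0.186 (adjusted p = 0.81) with all, and from young to old by 0.298 points (adjusted p = 0.022). edgeR then called 2 genes between young and old, mt-Rnr1 at 0.47 and mt-Rnr2 at 0.65, beside 6.35% of all genes. With the markers as a covariate it called 0, with -0.11 and -0.19 for these genes, but the part of all genes called also fell, from 7.39% to 0.0823%. The part of cumulus RNA in these results was not tested further.

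In cumulus cells of the first set, mt-Co1 was the only mitochondrial gene that edgeR called with age. It fell by 0.30 log2 units from young to middle (SE 0.0770, adjusted p = 0.0373), from 4991, 6149 and 8091 RPKM to 3334, 5263 and 6869 RPKM, with wide overlap. This was 1 of 37 genes, where 1.46% of all genes were called and 0.808% were called lower, so the count is near that of all genes. At an unadjusted p under 0.05 there were 19, without the part of all genes at that limit for comparison. All 13 mRNAs had a fold change below 0. DESeq2 called 3, beside 2.19% of all genes. The share was 9.19% ± 1.41 in young and 8.14% ± 1.07 in middle cumulus cells, a difference of -1.05 points (adjusted p = 0.0758). Stroma markers in these groups had means of 5.47 and 20.7 CPM (medians 2.19 and 4.64, up to 116 CPM in middle cumulus cells), and their relation to the share was not tested. From young to old, edgeR called 0 of 37 (5 at an unadjusted p under 0.05, 0 by DESeq2, 3.96% of all genes), and the share differed by -0.705 points (adjusted p = 0.326). With counts summed per mouse, 0 mitochondrial genes were called from young to middle, and 0% of all genes. Without Young1, Young2, Middle2 or Middle3, 0 were called (beside 0.6%, 0.0483%, 0.156% and 1.56% of all genes), against 4 without Middle1 and 2 without Middle4, beside 5.15% and 0.826% of all genes. The share passed the threshold without Young2 (-2.40 points) or Middle4 (-1.31 points).

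In the second set, the share of mitochondrial genes in cumulus cells was higher at 9 and 14 months than at 2 months. It ran from 6.25% over 10.1% to 19.3% at 9 months (mean 11.6% ± 4.59, n = 16), a difference of 2.99 points from 2 months (adjusted p = 0.0373), and 13 of 16 libraries lay above the median at 2 months. At 14 months it ran from 6.67% over 10.7% to 15.9% (mean 10.6% ± 2.47, n = 16), a difference of 1.97 points (adjusted p = 0.0403), again with 13 of 16 above that median. At 4 months the difference was 0.808 points (adjusted p = 0.288). The ranges overlapped in each case, and the 3 comparisons share the libraries of 2 months. Cumulus cells of the first set differed with the other sign between the same ages. There the share changed by -1.05 points from young to middle and -0.705 from young to old (adjusted p = 0.0758 and 0.326, permutation test). A rise with age was thus not seen in both sets. Stroma markers in the same cumulus groups had means of 2.28, 14.5 and 14.7 CPM at 2, 9 and 14 months (medians 1.41, 2.50 and 5.17), with single libraries of up to 166 and 89.4 CPM at the later ages, and their relation to the share was not tested.

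The share in cumulus cells also moved with the plate. At 2 months its mean was 7.59% on B1 and 10.6% on B2, at 9 months 8.71% and 14.4%, and at 14 months 9.05% and 12.1%. Of the 24 libraries at 2 months 16 were on B1, against 8 of 16 at 9 and at 14 months, and each mouse was on 1 plate. Within plates, the difference from 2 to 9 months was 1.12 points on B1 and 3.87 on B2, and from 2 to 14 months 1.46 and 1.5. Permuted within plates, the mean differences of 2.49 and 1.48 points had adjusted p-values of 0.0593 and 0.0744. Over mouse means, the differences of 2.94 and 1.58 points had exact p-values of 0.175 and 0.238. Without 2mo1, 2mo2 or 2mo34, neither difference passed the threshold (2.68, 2.60 and 2.87 points at 9 months, 1.67, 1.58 and 1.85 at 14 months), nor did it without 9mo23 or 9mo24 (1.93 and 2.14) or without 14mo40 or 14mo41 (1.75 and 1.2). The calls rest on libraries and on both plates pooled.

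By gene, 3 of 37 were called from 2 to 9 months in cumulus cells, each higher, where 1.92% of all genes were called and 1.51% were called higher. DESeq2 called 7, beside 2.1% of all genes. mt-Nd1 rose by 0.65 log2 units (SE 0.157, adjusted p = 0.0197), from 1629, 2020 and 3776 RPKM to 1290, 3109 and 6329 RPKM. The libraries at 9 months spanned those at 2 months on both sides. mt-Rnr2 rose by 0.57, from a median of 20128 to 25910 RPKM, and mt-Nd4 by 0.50, from 971 to 1307 RPKM. From 2 to 14 months 1 of 37 was called, mt-Nd1, which rose by 0.50 (adjusted p = 0.0169, median 3061 RPKM). Here 1.7% of all genes were called and 0.927% were called higher, and DESeq2 called 2, beside 1.76%. From 2 to 4 months, edgeR called 0 of 37, with 0 at an unadjusted p under 0.05 and 0 by DESeq2, where 0.519% of all genes were called. With the plate as a covariate, mt-Nd1 alone was called at 9 months (0.44, adjusted p = 0.0455) and mt-Nd1 was called at 14 months (0.38, adjusted p = 0.0139). Of all genes 1.69% and 1.81% were then called. With counts summed per mouse, 0 mitochondrial genes were called at 9 or 14 months, beside 0.00869% and 0.131% of all genes. Without 2mo1, 2mo2, 2mo34, 9mo23 or 9mo24, 0 were called at 9 months (beside 1.12%, 1.4%, 0.704%, 0.778% and 0.769% of all genes), without 9mo21 or 9mo22 12 (beside 1.69% and 3.29% of all genes), and without 2mo35 or 2mo36 7 and 6 (2.47% and 1.29%). Without 2mo2, 2mo34, 14mo40 or 14mo41, 0 were called at 14 months (1.35%, 0.951%, 1.03% and 0.986%), and without 2mo36 3 (1.82% of all genes).

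Oocytes of the second set had no mitochondrial gene called by edgeR at any age. From 2 to 4 months 0 of 36 were called (1 at an unadjusted p under 0.05, 0 by DESeq2, 0.0126% of all genes), and from 2 to 9 months 0 of 31 (0, 0 by DESeq2, 0.16%). From 2 to 14 months 0 of 36 were called, with 9 at an unadjusted p under 0.05, 0 by DESeq2 and 1.14% of all genes. mt-Nd1 was again first, with medians of 74.7 and 120 RPKM and a log2 change of 0.52 (adjusted p = 0.0987), and without 2mo35 3 genes were called, beside 1.59% of all genes. All 13 mRNAs had a fold change above 0 from 2 to 14 months (median log2 change 0.28) and from 2 to 4 months (0.13). From 2 to 9 months 9 of 13 did (0.02). The rRNA part of the mitochondrial counts had medians of 78.7% at 2 months and 74.1% at 14 months, given without a test. Shares of all mitochondrial genes lay close together, with means of 0.534%, 0.518%, 0.521% and 0.550% at 2, 4, 9 and 14 months (adjusted p = 0.81 for each difference from 2 months). These differences had opposite signs on the plates, with 0.0456, 0.0229 and 0.0219 points on B1 and -0.147, -0.124 and -0.0637 points on B2.

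Hyperovulation was compared at 2 months, from mice without to mice with the injection. In oocytes the share was 0.413%, 0.588% and 0.720% without and 0.348%, 0.5% and 0.847% with hyperovulation, a difference of -0.0448 points (adjusted p = 0.278). It was -0.0948 points on B1 and 0.0790 on B2. edgeR called 0 of 32 genes, with 1 at an unadjusted p under 0.05 and 0 by DESeq2, where 0.0299% of all genes were called. Without 2mo35 or 2mo36, both on B2, the difference in share was -0.0745 or -0.0741 points and passed the threshold (adjusted p = 0.028 and 0.0322).

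In cumulus cells, hyperovulation changed 2 of 37 mitochondrial genes, 1 in each direction, where 13.2% of all genes were called, 6.16% higher and 7.01% lower. Both counts are below those of all genes. mt-Tl1, the tRNA for leucine next to the rRNAs, rose by 0.80 log2 units (SE 0.179, adjusted p = 0.00118), from 36, 129 and 306 RPKM to 78.0, 226 and 566 RPKM. mt-Nd6 fell by 0.47 (adjusted p = 0.0304), from 479, 747 and 3413 RPKM to 482, 590 and 1136 RPKM. The mt-Nd6 value of 3413 RPKM belonged to 1 library of the mouse 2moNoH13, in which 22.1% of counts were mitochondrial (95% Wilson interval 22% to 22.2%), the highest share of all cumulus libraries. Without that mouse mt-Nd6 changed by -0.28 (adjusted p = 0.171) and mt-Tl1 by 0.82 (adjusted p = 0.00192). Shares were 5.54%, 8.98% and 22.1% without and 6.03%, 7.77% and 15.0% with hyperovulation, a difference of -0.864 points (adjusted p = 0.423), with 0.476 points on B1 and -1.21 on B2. Without 2mo1, 2mo2 or 2mo34 1 gene was called (beside 10.6%, 12% and 6.41% of all genes), and without 2mo35 or 2mo36 4 (13.8% and 12.1%). With the plate as a covariate 1 gene was called (12.7%), with counts summed per mouse 0 (0.952%), and by DESeq2 4 (13%).

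Cumulus and oocyte libraries of 1 complex were compared for their shares. Pearson's r was 0.569 at 2 months (rho 0.474, n = 24), 0.525 at 9 months (rho 0.450, n = 16), 0.438 at 14 months (rho 0.432, n = 16), 0.334 at 4 months (rho 0.282, n = 39) and 0.279 without hyperovulation (rho 0.204, n = 32). In the first set it was 0.169 in CR, 0.0867 in middle, -0.0208 in old and -0.327 in young complexes. Within plates the values at 2 months were -0.0533 on B1 (n = 16) and 0.244 on B2 (n = 8), and at 14 months 0.00475 and -0.307 (n = 8 each). Without the 2 farthest libraries, the values at 2 months were 0.365 and 0.738, so with so few libraries the relation within plates turns on single ones. Without hyperovulation it was -0.214 and 0.106 (n = 16 each). At 4 months it was 0.322 on B1 (n = 23) and 0.412 on B2 (n = 16), and at 9 months 0.516 and 0.235 (n = 8 each).

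Some mitochondrial reads also match the nuclear genome, which holds old copies of mitochondrial DNA. Of 9 annotated nuclear copies, Gm10925 matched mt-Atp6 over 678 bases, Gm28437 mt-Co3 over 783, Gm28661 mt-Co2 over 681 and Gm28439 mt-Nd4 over 876, each at 100% identity. The most abundant, Gm29216, matched mt-Co1 at 99.8% over 483 bases and held a mean of 2265 CPM in cumulus cells and 196 CPM in oocytes of the second set. A read that fits both places was shared between them as a fraction. The mt-Co1 value was not whole in 97.7% of the cumulus libraries of that set, against 49.2% for mt-Rnr1, which does not give the part of reads shared. With these copies added to the mitochondrial share, the difference between the cell types was -9.11 points in young mice and -8.73 at 2 months.

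Nuclear genes that keep and express mitochondrial DNA were followed as a list of 45, of which 1, Prorp, was not found under that symbol. From cumulus cells to oocytes, 17 of 44 tested were higher and 21 lower in young mice, and 20 higher and 15 lower at 2 months. With 85.6% and 88.4% of all genes called, these counts do not set the list apart. Gabpa, an activator of genes for respiratory chain subunits, changed by -4.89 and -6.42, with medians of only 2.5 and 1.5 counts in oocytes. For Mterf2, which binds mitochondrial DNA, no oocyte exceeded 1 count, and the cumulus median was at least 3.89-fold and 5.13-fold higher than a floor of 3 counts in oocytes. Nsun4, a methyltransferase of mitochondrial rRNA, changed by 4.21 and 4.54. The median log2 change of the list was -0.33 in young mice and 0.20 at 2 months.

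From middle to CR oocytes, 10 of 44 listed genes rose and 7 fell, beside 30% of all genes called and 15.8% called higher, with a median log2 change of 0.10. Grsf1, which binds mitochondrial RNA in its granules, rose by 0.99 and Pnpt1, an exoribonuclease of mitochondrial RNA, by 0.79. Polrmt, the RNA polymerase of mitochondria, fell by 0.88 log2 units (adjusted p = 2.14e-12). With counts summed per mouse, 4 of the list were called (Polrmt, Pnpt1, Fastkd1 and Grsf1), beside 8.51% of all genes. Mterf2 was called over libraries too, but no middle oocyte exceeded 2 counts, so its fold is not given. From young to old oocytes 4 of 44 rose and 1 fell, beside 7.39% of all genes called, with Hsd17b10 (1.44), Fastkd2 (0.55), Mtpap (0.47) and Elac2 (-0.41) among them. Several of these act in cutting or tailing mitochondrial RNA, roles by which the list was drawn up, so this is no result of the test. Old oocytes also held more of the cumulus markers (mean 563 CPM, against 262 CPM in young), and Hsd17b10 had a mean of 42.7 CPM in cumulus cells and 3.33 CPM in oocytes. With the markers as a covariate, 0 of the list were called, beside 0.0823% of all genes, and with counts summed per mouse 0, beside 0%. At 14 months Mterf2 was the only 1 of 44 listed genes called in oocytes, beside 1.14% of all genes. It did not exceed 1 count at 2 months or 4 at 14 months, so its fold is not given. It was not called by DESeq2, with the plate as a covariate or with counts summed per mouse. Of the list, 0 were called between young and middle oocytes, at 4 or 9 months, or with hyperovulation. Beside them, 0%, 0.0126%, 0.16% and 0.0299% of all genes were called. At an unadjusted p under 0.05 edgeR had 3, 2, 3 and 5 of the list.

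In cumulus cells 6 of 44 listed genes were called with hyperovulation, 1 higher and 5 lower, which is near the 13.2% of all genes called. Among them were Tfb2m, a transcription factor of mitochondria (-0.88), Pde12 (-0.50), Fastk (0.43) and Mtpap (-0.42). Trmt10c fell by 0.72 from young to old, as 1 of 44 called beside 3.96% of all genes. Polg2, a subunit of the DNA polymerase of mitochondria, rose by 1.28 from 2 to 4 months, as 1 of 44 beside 0.519%. With counts summed per mouse 0 of the list were called in any of these comparisons in cumulus cells. Of all genes 0.952% (hyperovulation), 0.351% (young to old) and 0% (2 to 4 months) were called in this way. With the plate as a covariate 3 were called with hyperovulation (Tfb2m, Fastk and Pde12) and 0 from 2 to 4 months, beside 12.7% and 0.551%. In the other 4 comparisons in cumulus cells, edgeR called 0 of the list. Of all genes it called 1.46% (young to middle), 3.6% (middle to CR), 1.92% (2 to 9 months) and 1.7% (2 to 14 months). At an unadjusted p under 0.05 the list had 5, 2, 6 and 4 genes in these comparisons.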

How the data were processed

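Single oocytes and the pooled cumulus cells of their follicles were profiled by RamDA-seq. According to the sample records, read trimming used Fastq-mcf, mapping to GRCm38 used HISAT2 2.0.5, and featureCounts 1.5.1 with GENCODE vM15 gave the gene counts. The values the authors deposited are expected counts, in which a read that maps to several genes is shared as a fraction. Of all values above 0, 36.8% (first set) and 35.1% (second set) are therefore not whole. They were rounded for edgeR and DESeq2. The deposited RPKM values were not used. The depth of each library and the floor of 3 counts limit mainly the tRNAs, and intervals cover counting error only, since reads carry no molecular identifiers.

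Of 401 libraries, 399 were used. The oocyte library of 1 complex correlated more with the cumulus mean than with the oocyte mean of its set and was left out with its cumulus library. No pair of libraries held identical values, and the highest correlation of 2 libraries was 0.981 (first set) and 0.982 (second set). Testing covered genes counted in 5 or more of the libraries compared and used edgeR 4.0.16 (TMM, quasi-likelihood F test, R 4.3.3), over all genes at an adjusted p under 0.05. Tests of shares were two-sided permutations of libraries (100000 resamples, numpy 2.4.6), adjusted by Benjamini-Hochberg over 16 comparisons. Levels are RPKM computed from the counts, with lengths from GENCODE vM21, and nuclear copies were aligned with blastn 2.17.0. The edgeR test was also run on simulated data, and the outcome is not given here.

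Alternatives were DESeq2 1.42.0, scaling by nuclear genes, edgeR's filterByExpr, counts or means per mouse, all libraries, plates, a replicate block for complexes, shares without rRNA or with nuclear copies, and each mouse left out in turn in groups of at most 5. Oocyte and cumulus libraries of 1 complex are paired by the labels. Over genes, the median correlation of their deviations from the group means was 0.0237 within young complexes and 0.0199 at 2 months, against -0.00735 and -0.00219 between complexes. All 37 genes are accounted for. Named are the rRNAs, the mRNAs where a result turns on them, the most abundant tRNAs, called tRNAs and, per comparison with calls, the 3 largest changes in each direction, and at most the 4 largest of the called nuclear genes. Others, such as mt-Nd3, were named after their values were seen. The genes, lists and tests were chosen with earlier results of these data known.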

Additional observations from a re-analysis of the deposited data

Results flagged for a closer look

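The change of the oocyte share and that of the cumulus share were compared within complexes, on the log2 scale, by permuting complexes between the groups, as a test added after seeing the data, adjusted over 7 comparisons for each measure. From middle to CR mice, the share of mitochondrial genes changed by 0.52 log2 units more in oocytes than in cumulus cells (adjusted p = 0.0191, 14 middle and 25 CR complexes). For the share of the 13 mRNAs the difference was 1.43 (adjusted p = 7e-05), with a change of 1.28 in oocytes and -0.13 in cumulus cells. From 2 to 9 months, the share of mitochondrial genes differed by -0.37 (adjusted p = 0.0191), with -0.01 in oocytes and 0.36 in cumulus cells (24 and 16 complexes), while for the share of the 13 mRNAs it was -0.24 (adjusted p = 0.263). From young to old mice, the difference for the share of mitochondrial genes was 0.78 and did not pass (adjusted p = 0.0956). In the second set the plates bear on both cell types, and their part in this difference was not tested. The comparisons of middle and CR mice cannot be told apart from a difference in handling between these groups.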

How the results depend on the processing

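Counts of called mitochondrial genes stayed within 1.5 times in 136 alternatives and moved further in 51. Differences in share kept their side of the threshold in 151, in 21 of them with the other sign and an adjusted p of 0.05 or more, passed it only then in 14, no longer passed it in 18 and, while passing it, reversed in 1. Where a result moved, the cause was not tested. Depth limits the tRNAs.

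With filterByExpr, which kept 15 to 19 of the mitochondrial genes for testing, the calls were 17 of 17 between the cell types in each set (beside 90.5% of all genes in young mice and 93.6% at 2 months). In cumulus cells they were 5 of 17 from 2 to 9 months (3.46%), 2 of 19 from middle to CR (7.02%) and 5 of 17 with hyperovulation (27.3%), and from young to old oocytes 1 of 15 (18.5%). DESeq2 called 2 from 2 to 14 and 7 from 2 to 9 months in cumulus cells, beside 1.76% and 2.1% of all genes. Also in cumulus cells, it called 2 from middle to CR (4.16%), 4 with hyperovulation (13%) and 3 from young to middle (2.19%). From young to old oocytes it called 2 (12.2%). With counts summed per mouse, calls in cumulus cells were 0 from 2 to 14 and 2 to 9 months, with hyperovulation and from young to middle, beside 0.131%, 0.00869%, 0.952% and 0% of all genes. With the plate as a covariate they were 1 from 2 to 9 months and 1 with hyperovulation, beside 1.69% and 12.7% of all genes. With all libraries they were 3 from young to middle in cumulus cells and 7 from middle to CR in oocytes, beside 1.28% and 30.7% of all genes. In these oocytes mt-Rnr1 reversed to -0.28. Without oocyte libraries over 500 CPM of cumulus markers, chosen after seeing the data, 2 were called from young to old oocytes, beside 6.35%. With the replicate block of paired complexes, 36 genes were called in young mice and 33 at 2 months, beside 82.9% and 86% of all genes. The mitochondrial shares then differed by -8.19 and -8.05 points.

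Differences in share over mouse means were -8.09 (2 months) and -8.82 points (young) between the cell types, and 1.58 and 2.94 in cumulus cells from 2 to 14 and 2 to 9 months, none past the threshold after adjustment. Between the cell types the unadjusted p-values of 0.00794 and 0.333 are the smallest that these mice allow, so in young mice the test could not pass. Within plates the cumulus differences were 1.48 and 2.49, also not past it. Without rRNA genes they were 0.438 from 2 to 14 months (no longer past it), and -0.450 from young to middle cumulus cells and 0.218 from middle to CR oocytes (both now past it). Also now past it were young to middle cumulus cells with all libraries (-1.10) and with nuclear copies (-1.21), and middle to CR oocytes with nuclear copies (0.421), and, both chosen after seeing the data, on the log2 scale (0.49) and without libraries over 500 CPM (0.264). Without those libraries, young to middle oocytes reversed to 0.164, and young to old was 0.298.

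Leaving out 1 mouse at a time gave 21 to 37 calls between the cell types in young mice. In cumulus cells it gave 0 to 3 from 2 to 14 months, 0 to 12 from 2 to 9 months, 0 to 1 from middle to CR, 1 to 4 with hyperovulation and 0 to 4 from young to middle. In oocytes it gave 0 to 3 from 2 to 14 months and 0 to 9 from young to old. Differences in share ran from -9.87 to -7.77 points between the cell types in young mice. In cumulus cells they ran from 1.2 to 2.42 (2 to 14 months), 1.93 to 4.34 (2 to 9 months), 0.419 to 1.26 (2 to 4 months), -2.40 to -0.708 (young to middle), -2.06 to -0.366 (young to old), -1.32 to -0.283 (hyperovulation) and, across 0, -0.432 to 0.373 (middle to CR). In oocytes they ran from 0.257 to 0.465 (middle to CR), from -0.0745 to -0.0142 (hyperovulation) and, across 0, from -0.320 to 0.898 (young to old), -0.287 to 0.115 (young to middle), -0.0468 to 0.0135 (2 to 4 months), -0.0444 to 0.0160 (2 to 9 months) and -0.0146 to 0.0457 (2 to 14 months).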
